A study of Rattus norvegicus with 6 samples.

Results

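The EGF family genes studied here are the ligands Ereg, Areg, Hbegf, Tgfa and Nrg1, the receptors Egfr, Erbb2 and Erbb3, and the feedback inhibitor Errfi1. They were taken by symbol from the combined count table, as 9 of its 20264 gene symbols. RNA-seq read counts were measured in 6 libraries of primary nucleus pulposus cells (NPCs), the cells of the gelatinous core of the intervertebral disc, from wild type male Sprague-Dawley rats of 120 to 150 g, whose age was not given in the sources used here. All 6 libraries came from cells exposed to tert-butyl hydroperoxide (TBHP), an oxidant that induces senescence in culture. The TBHP group (n = 3) received TBHP alone and the TBHP+FGF21 group (n = 3) received TBHP together with recombinant rat FGF21, a circulating fibroblast growth factor. Libraries of cells without TBHP were not analysed here. In the treatment labels of the second group, replicate 2 carries the name FGF22 and replicate 3 the name FGF23, while the shared protocol gives FGF21 for the whole group and was followed. The dose and duration of FGF21 for these libraries, and whether the replicates came from separate animals, were not given in the sources used here, so the p-values measure the spread between these libraries only.

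The EGF family signals between cells over short distances. Its ligands are made as membrane-bound precursors, are cut from the surface by sheddases such as ADAM17, and bind ERBB receptor tyrosine kinases, which pair up and activate RAS-ERK, PI3K and STAT signalling. ERK signalling in turn raises transcription of several of the ligands and of Errfi1, whose protein MIG6 binds the EGFR kinase domain and shuts it off. In the intervertebral disc, EGFR signalling is known for its part in the growth and upkeep of the tissue.

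The promoter sequence is shown for a ligand, for the feedback gene and for the main receptor, because the members below are described by these roles. RefSeq sequences (GRCr8) were matched for 6 of the 9 members and not for Ereg, Nrg1 and Erbb3, and the 250 bases before the annotated start are used. Capitals mark matches, on either strand, to the cAMP response element TGACGTCA, to its core TGACG, which lies inside the whole element, and to TATAAA. The AP-1 element TGAGTCA and the EGR element GCGTGGGCG were also searched and were found in none of the 6. For Areg the window is chr14:17265642-17265891 on the minus strand, for Errfi1 chr5:166606591-166606840 on the plus strand and for Egfr chr14:95378376-95378625 on the plus strand.
Areg: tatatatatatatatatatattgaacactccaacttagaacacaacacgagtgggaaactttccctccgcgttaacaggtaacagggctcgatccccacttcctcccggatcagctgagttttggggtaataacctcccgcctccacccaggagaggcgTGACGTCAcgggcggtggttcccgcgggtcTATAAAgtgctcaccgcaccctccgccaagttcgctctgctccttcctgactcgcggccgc
Errfi1: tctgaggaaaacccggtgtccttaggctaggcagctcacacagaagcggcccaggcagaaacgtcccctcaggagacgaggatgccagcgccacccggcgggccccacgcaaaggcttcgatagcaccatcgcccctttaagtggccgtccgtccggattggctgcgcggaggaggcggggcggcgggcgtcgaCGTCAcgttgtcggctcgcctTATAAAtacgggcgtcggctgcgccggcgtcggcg
Egfr: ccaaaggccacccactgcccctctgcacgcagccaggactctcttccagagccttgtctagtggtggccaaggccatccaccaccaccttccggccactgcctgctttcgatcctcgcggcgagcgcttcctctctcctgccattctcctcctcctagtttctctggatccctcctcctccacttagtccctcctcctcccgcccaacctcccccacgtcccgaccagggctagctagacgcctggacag
The Areg promoter held the whole TGACGTCA, beginning 91 bases before the start, as did 1.59% of the 33469 RefSeq promoters, and no other of the 6 members did. The core TGACG was found in Areg, Hbegf and Errfi1, and in 18.2% of all promoters. TATAAA was found in Areg and Errfi1 and in 12.9% of all promoters. The promoters of Tgfa, Egfr and Erbb2 held none of these letters. A match is a description of the sequence only.

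Libraries held between 18277732 and 22426190 counts. Levels are given as CPM, counts scaled to a common library size, after TMM scaling, edgeR's correction for library composition, and the limit that a count of 0 allows, 3 counts, was 0.134 to 0.164 CPM for counting error alone. Replicate 2 of the TBHP+FGF21 group was nearer to the TBHP libraries than to its own group. Its mean Spearman's rho across genes was 0.993 with the TBHP libraries and 0.990 with the other libraries of its group. TBHP replicate 3 was also between the groups, with 0.991 for its own group and 0.992 for the TBHP+FGF21 group. Replicate 3 of the TBHP+FGF21 group was the farthest from the TBHP libraries, at 0.989, and was at 0.991 with its own group. By chi-square per gene, replicate 1 of the TBHP+FGF21 group was as far from replicate 3 (22.9) as from replicate 2 (22.9). It was nearer to TBHP replicate 3 (15.3) than to either of these, and farther from TBHP replicates 1 (31.0) and 2 (38.0). The groups follow the titles, and whether each library received the treatment of its title was not tested. All group means and fold changes rest on those titles, so values without replicate 2 of the TBHP+FGF21 group are given where they change a call. That library was singled out from these same data, so p-values without it are descriptions and not tests. Aggrecan (Acan), a main proteoglycan of the nucleus pulposus, was at 2506 to 4355 CPM, but the notochordal genes Tbxt, Shh and Noto had no count in any library. Markers of annulus and fibroblasts summed to between 32519 and 47366 CPM. Markers of keratinocytes and other epithelia, cells known for making EGF ligands, summed to between 3.27 and 6.08 CPM, with Krt1, Dsg3 and Cdh1 at 0 in all libraries. Macrophage and leukocyte markers summed to between 26.8 and 38.2 CPM, with Ptprc, Adgre1, Tyrobp and C1qa at 0. In bulk libraries, fewer cells of a type and less RNA per cell cannot be told apart.

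In the comparison of TBHP+FGF21 with TBHP, Ereg, Areg, Egfr, Erbb2 and Errfi1 had higher means in the TBHP+FGF21 group, and Hbegf, Tgfa and Nrg1 had lower ones. None of them was called changed. With Benjamini-Hochberg adjustment over the 11426 genes of the edgeR fit (quasi-likelihood), 0 of the 8 members with enough counts had an adjusted p under 0.05, against 0.00875% of all genes. At an unadjusted p under 0.05 there were 2 of the 8, with Ereg higher (background 4.63%) and Nrg1 lower (background 4.29%), and 8.92% of all genes in either direction. Erbb3 did not pass the filter on low counts. The median log2 fold change of the 8 members was 0.17, against -0.01 over all genes tested, whose quartiles were -0.14 and 0.12. The log2 fold change was above 0 for 5 of the 8 and for 48.9% of all genes, and below 0 for 3 of the 8 and for 51.1% of all genes. The 2 groups overlapped for all 9 members, while they were apart with higher values for 4.90% of all genes and with lower values for 5.00%. The two-sided exact permutation test over libraries gave p between 0.2 and 0.7 for the 9 members, where 3 libraries against 3 cannot go below 0.1.

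**Figure D1:**
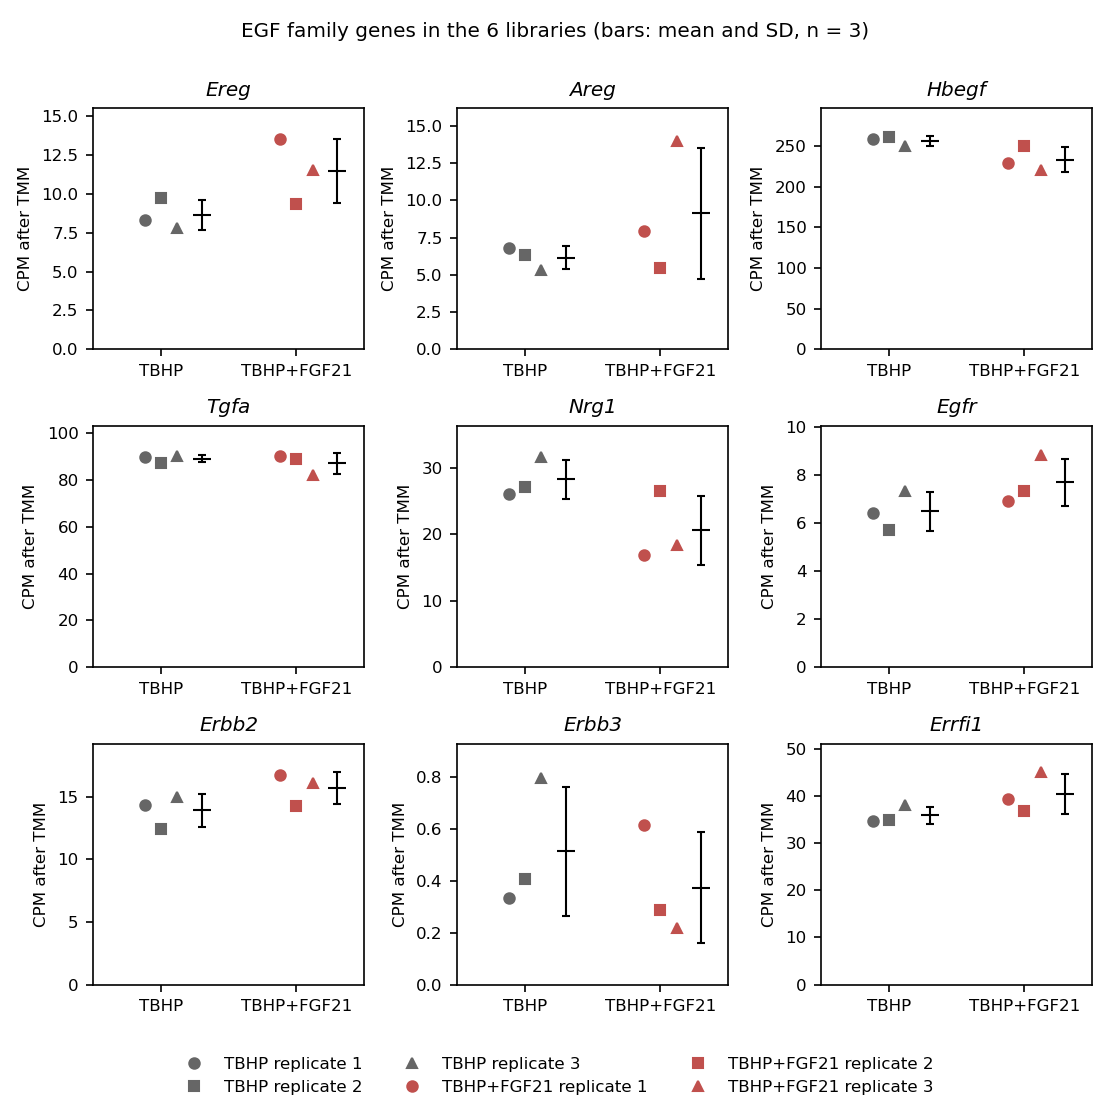
Level of each EGF family gene in CPM after TMM scaling (vertical axis, from 0) in the 3 TBHP libraries (grey) and the 3 TBHP+FGF21 libraries (red), with the marker shape giving the replicate and the bars the group mean and SD (n = 3). In the TBHP+FGF21 group, replicate 2 (square) lies inside the TBHP range for Ereg, Areg, Hbegf, Tgfa, Nrg1, Erbb2 and Errfi1.

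The ligand Ereg encodes epiregulin, which binds EGFR and ERBB4. It was at 8.32, 9.70 and 7.83 CPM in TBHP replicates 1, 2 and 3, and at 13.5, 9.33 and 11.6 CPM in TBHP+FGF21 replicates 1, 2 and 3. Replicates 1 and 3 of the TBHP+FGF21 group were above every TBHP library and replicate 2 was inside their range. The group means were 8.62 ± 0.97 and 11.5 ± 2.09 CPM (SD, n = 3), a 1.33-fold ratio in the fit. This was 0.41 ± 0.16 (SE) on the log2 scale, with an unadjusted p = 0.0267 and an adjusted p = 0.553 in edgeR. Dropping replicate 2 given FGF21 made it 0.55 (adjusted p = 0.0421, edgeR) and dropping replicate 1 given FGF21 made it 0.29 (unadjusted p = 0.128, edgeR).

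Areg encodes amphiregulin, a heparin-binding ligand of EGFR. TBHP replicates 1, 2 and 3 were at 6.81, 6.30 and 5.30 CPM, and TBHP+FGF21 replicates 1, 2 and 3 at 7.96, 5.46 and 13.99 CPM. Replicate 3 of the TBHP+FGF21 group was far above the rest, replicate 1 was just above the TBHP range, and replicate 2 was inside it. Means were 6.14 ± 0.77 and 9.14 ± 4.39 CPM (SD, n = 3), and the log2 fold change was 0.58 ± 0.28 (SE, adjusted p = 0.553, edgeR). This value rested on 1 library. Dropping replicate 3 given FGF21 left 0.14 (unadjusted p = 0.509, edgeR), and dropping replicate 2 instead gave 0.86 (adjusted p = 0.0193, edgeR).

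The ligand gene Nrg1 encodes neuregulin 1, which binds ERBB3 and ERBB4 rather than EGFR. TBHP libraries had 26.1, 27.1 and 31.6 CPM, and TBHP+FGF21 libraries had 17.0, 26.6 and 18.4 CPM, in the order of the replicates. Replicates 1 and 3 of the TBHP+FGF21 group were below every TBHP library, and replicate 2 was inside their range. The means were 28.3 ± 2.95 and 20.6 ± 5.19 CPM (SD, n = 3). The difference was -0.46 ± 0.16 (SE) on the log2 scale, with the smallest edgeR p of the members, 0.0145 before and 0.553 after adjustment. Leaving out replicate 2 given FGF21, it was -0.67 (adjusted p = 0.00496, edgeR), and leaving out replicate 1, it was -0.32 (unadjusted p = 0.0760, edgeR).

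Hbegf and Tgfa encode heparin-binding EGF-like growth factor and transforming growth factor alpha, which both bind EGFR. Their libraries lay close together, with a coefficient of variation in the TBHP group of 2.35% for Hbegf and 1.60% for Tgfa. Hbegf was at 259, 261 and 249 CPM in the TBHP replicates and at 228, 250 and 220 CPM in the TBHP+FGF21 replicates. Replicates 1 and 3 of the TBHP+FGF21 group were again below every TBHP library, while replicate 2 was inside their range. Its log2 fold change was -0.14 ± 0.09 (SE, adjusted p = 0.606, edgeR). For Tgfa the TBHP libraries were at 89.8, 87.6 and 90.2 CPM and the TBHP+FGF21 libraries at 90.3, 89.2 and 82.0 CPM. Replicate 3 of the TBHP+FGF21 group was the lowest library, and the other two differed little from TBHP. The log2 fold change of Tgfa was -0.03 (standard error 0.09, adjusted p = 0.900, edgeR).

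**Figure D2:**
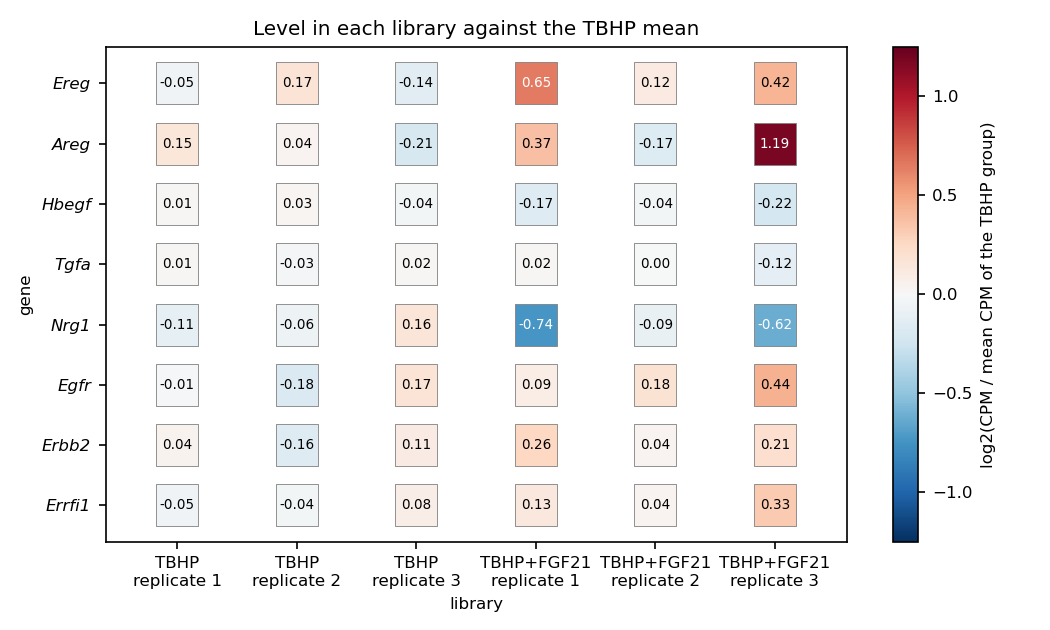
Level of each of the 8 tested EGF family genes (rows) in each library (columns), as log2 of its CPM over the mean CPM of the TBHP group, with red above and blue below that mean. In replicates 1 and 3 of the TBHP+FGF21 group Nrg1 is at -0.74 and -0.62, and in replicate 3 Areg is at 1.19, while in replicate 2 every gene is between -0.17 and 0.18.

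Egfr, the receptor of Ereg, Areg, Hbegf and Tgfa, had 115, 126 and 156 counts in the TBHP libraries and 146, 153 and 202 counts in the TBHP+FGF21 libraries. These were 6.42, 5.71 and 7.31 CPM and 6.92, 7.32 and 8.81 CPM. Replicate 3 of the TBHP+FGF21 group was above the others, replicate 2 was barely above the highest TBHP library and replicate 1 was inside the TBHP range. The log2 fold change was 0.25 ± 0.16 (SE, adjusted p = 0.609, edgeR). Erbb2, whose product binds no ligand of its own and pairs with the other receptors, was at 14.3, 12.4 and 15.0 CPM in the TBHP libraries and at 16.7, 14.3 and 16.1 CPM in the TBHP+FGF21 libraries. Replicates 1 and 3 of the TBHP+FGF21 group were the highest of the 6, and replicate 2 was within the TBHP range. Its log2 fold change was 0.18 ± 0.13 (SE, adjusted p = 0.634, edgeR).

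Erbb3, a neuregulin receptor with a weak kinase that signals through its partner, was near the limit of detection. It had 6, 9 and 17 counts in the TBHP libraries and 13, 6 and 5 counts in the TBHP+FGF21 libraries, or 0.218 to 0.797 CPM. The groups overlapped widely, and no difference was detectable at this depth. With no filter on low counts, its log2 fold change was -0.47 ± 0.55 (SE, adjusted p = 0.774, edgeR). Erbb4, the other neuregulin receptor, had 6 to 22 counts per library and a log2 fold change of 0.06 ± 0.42 (SE, adjusted p = 0.966, edgeR).

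Errfi1, the feedback inhibitor, was at 34.6, 34.9 and 38.0 CPM in the TBHP libraries and at 39.3, 36.8 and 45.0 CPM in the TBHP+FGF21 libraries. As for Ereg, Areg and Erbb2, replicates 1 and 3 of the TBHP+FGF21 group were above every TBHP library and replicate 2 was not. Its log2 fold change was 0.17 ± 0.10 (SE, adjusted p = 0.588, edgeR). Leaving out replicate 2 given FGF21, it was 0.24 (unadjusted p = 0.0443, adjusted p = 0.197, edgeR).

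**Figure D3:**
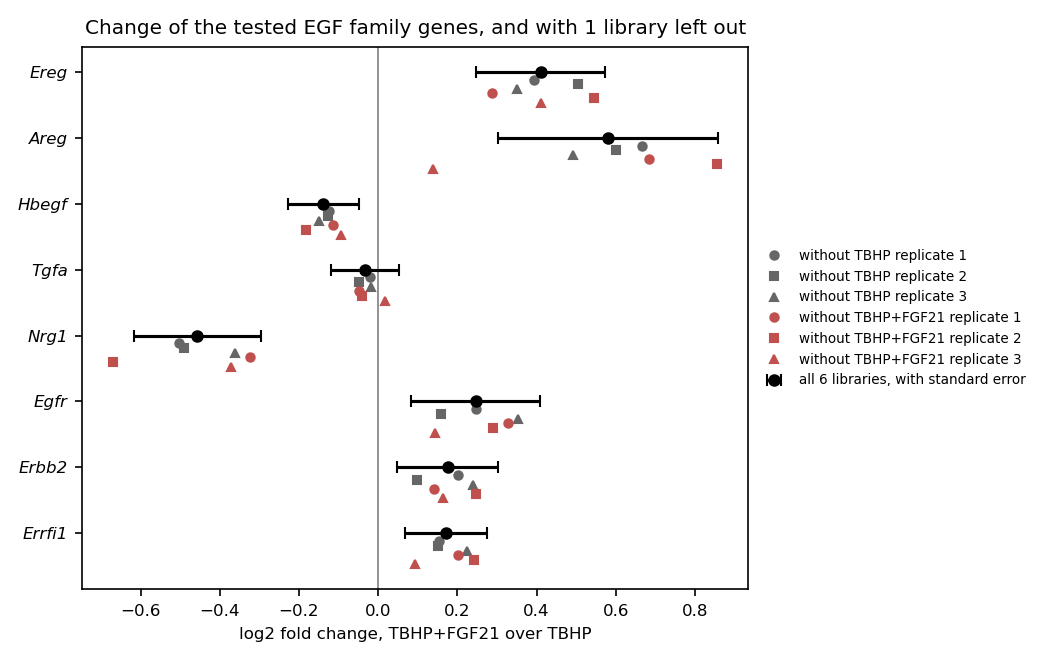
Log2 fold change of TBHP+FGF21 over TBHP (horizontal axis) for the 8 tested EGF family genes, with all 6 libraries (black, with the standard error) and with each library left out in turn (coloured markers below). Areg moves from 0.14 without TBHP+FGF21 replicate 3 to 0.86 without replicate 2, and Nrg1 reaches -0.67 without replicate 2.

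The libraries of the TBHP+FGF21 group differed in how far the members lay from the TBHP libraries. Replicate 2 was within the TBHP range for 7 of the 9 members, replicate 1 for 2 (Egfr and Erbb3) and replicate 3 for none. Over all genes tested, the same libraries lay within the TBHP range for 64.4%, 38.6% and 35.4% of the genes. In the fit without replicate 2, Erbb3 passed the filter too, so all 9 members were tested. Ereg and Areg were then higher and Nrg1 was lower at an adjusted p under 0.05, 3 of 9 members. Of all 11559 genes in this fit, 7.50% passed (3.78% higher and 3.72% lower). As replicate 2 was picked from these same data, this is a description and not a test. At an unadjusted p under 0.05 there were 4 of 9 without this library, against 23.6% of all genes. Of the 8 members tested with all libraries, again 5 had a log2 fold change above 0, as had 50.2% of all genes, and 3 below 0, as had 49.8%. Erbb3 was also below 0, at -0.33 (adjusted p = 0.767, edgeR). Markers of the disc cells also differed between libraries, and their part in these values was not tested. Of the 8 tested nucleus pulposus and notochord markers, 4 had a higher and 4 a lower mean with FGF21, their median difference was 0.00 on the log2 scale, and none had an adjusted p under 0.05 in edgeR. At an unadjusted p under 0.05 there were 3 higher (Pax1, Acan and Sox9) and 0 lower, against 4.63% and 4.29% of all genes. Pax1 (0.54), Sox9 (0.56), Acan (0.40) and Foxf1 (0.27) were on the higher side, and for each of them replicates 1 and 3 given FGF21 were above every TBHP library. Krt8 (-0.43, groups apart, as for 5.00% of all genes with lower values), Cd24 (-0.55), Car3 (-0.34) and Col2a1 (-0.26) were on the lower side. Of these, Cd24, Car3 and Col2a1 had between 9 and 57 counts per library. Without replicate 2 given FGF21, Pax1, Sox9, Acan and Foxf1 had an adjusted p under 0.05 in edgeR, and 0 of the lower markers did. Pax1 was at 229, 211 and 220 CPM in the TBHP libraries and at 348, 224 and 385 CPM in the TBHP+FGF21 libraries. The list, 11 of 14 markers with a count, summed to 2772 to 3219 CPM and to 3142 to 4820 CPM, most of it Acan, at 2506 to 2939 CPM and at 2864 to 4355 CPM. The annulus and fibroblast list, 8 of 9 with a count, was likewise split, with 4 higher and 4 lower, among them Pdgfra (0.39), Postn (-0.43) and Scx (-0.39). Pdgfra, Postn and Scx had an adjusted p under 0.05 in edgeR without replicate 2 given FGF21. The list summed to 42886 to 47366 CPM and to 32519 to 44820 CPM, most of it Col1a1.

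Across the 6 libraries, some pairs of members ran in opposite directions and some together. The first pairs named here were picked as those with the strongest r. Others were weakly related, such as Ereg and Egfr (r = 0.26) and Tgfa and Erbb2 (r = -0.14). Ereg and Nrg1 were inversely related on the log2 CPM scale (Pearson's r = -0.95), as were Hbegf and Errfi1 (r = -0.94), while Egfr and Errfi1 went together (r = 0.89). These are descriptions over 6 libraries that share the 2 treatments, the TMM scaling and the replicate 2 given FGF21 that lay near the TBHP libraries. Among genes with a mean of at least 1 CPM, those whose levels ran most like Ereg were Cxcl12 (r = 0.99), Smad5 (r = 0.99) and Stn1 (r = 0.99). For Nrg1 they were Polr3d, Aaas and Tpm3 (r = 0.99 each), and for Egfr they were Agpat2 (r = 0.99), Stat5a (r = 0.99) and Itpk1 (r = 0.98). They were picked as the highest of all genes compared, so high r values follow from the selection, and shared regulation was not tested. Cxcl12, a chemokine, was at 56.5, 60.5 and 52.1 CPM in the TBHP libraries and at 80.4, 59.3 and 69.9 CPM in the TBHP+FGF21 libraries.

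Of the other ERBB ligands and Erbb4, 6 of 7 listed genes were in the table and 3 were tested, all with a mean above that of the TBHP group and none at an unadjusted p under 0.05. Their median log2 fold change was 0.29. Epgn, which encodes the EGFR ligand epigen, was at 9.22, 9.29 and 9.99 CPM in the TBHP libraries and at 14.02, 8.47 and 16.0 CPM in the TBHP+FGF21 libraries. Here too replicates 1 and 3 of the TBHP+FGF21 group were above every TBHP library, and replicate 2 was the lowest of the 6. Its log2 fold change was 0.43 ± 0.20 (SE, unadjusted p = 0.0507 and adjusted p = 0.553, edgeR), and 0.67 without replicate 2 (adjusted p = 0.00968, edgeR). Btc, which encodes betacellulin, had 10 to 27 counts per library and a log2 fold change of 0.29 ± 0.38 (SE, adjusted p = 0.796, edgeR). In RefSeq's annotation, Btc, Areg, Ereg and Epgn follow each other as protein-coding neighbours on chromosome 14. Egf, Nrg2 and Nrg4 had between 0 and 13 counts per library and were not tested.

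The ligand shedding list, which holds ADAM and other proteases and their partners, had 11 of 12 genes in the test, 8 with a higher and 3 with a lower mean (48.9% and 51.1% of all genes), and a median log2 fold change of 0.08. The gene with an unadjusted p under 0.05 was Bace1, a protease that can cut neuregulin precursors, at 37.3, 29.5 and 37.0 CPM in the TBHP libraries and 45.0, 37.0 and 48.9 CPM in the TBHP+FGF21 libraries (log2 fold change 0.33 ± 0.13, SE, adjusted p = 0.553, edgeR). Its replicate 2 of the TBHP+FGF21 group was within the TBHP range and the other two were above it. Adam19, a protease of the same family as ADAM17, had a log2 fold change of -0.22 ± 0.13 (SE, adjusted p = 0.583, edgeR). Adam17, named for its role as the main sheddase of these ligands and not by the rule, was at 76.0 ± 6.16 and 80.1 ± 7.03 CPM (SD, n = 3), which differed by less than the SD of either group.

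The receptor adaptor and signalling list had 11 of 12 genes in the test, 6 higher and 5 lower, with a median log2 fold change of 0.00 and none at an unadjusted p under 0.05. Shc1, an adaptor that links receptors to RAS, was at 584 ± 22.8 and 580 ± 15.2 CPM (SD, n = 3). The smallest p of this list belonged to Nck1, another adaptor (log2 fold change -0.24, adjusted p = 0.568, edgeR), and to Plcg1, a phospholipase that docks on the receptors (0.14, adjusted p = 0.592, edgeR). Among other receptor inhibitors and turnover genes, 10 of 12 were tested, 9 with a higher and 1 with a lower mean (48.9% and 51.1% of all genes), and their median log2 fold change was 0.11, against -0.01 over all genes. Lrig3, of the LRIG family of membrane proteins that bind ERBB receptors, was the gene of this list with an unadjusted p under 0.05. It was at 12.3, 11.2 and 14.5 CPM in the TBHP libraries and 16.7, 15.4 and 15.6 CPM in the TBHP+FGF21 libraries (log2 fold change 0.32 ± 0.13, SE, adjusted p = 0.553, edgeR). Its groups did not overlap, as for 4.90% of all genes with higher values, and those of Lrrk1 and Plcg1 did not either. Lrrk1, a kinase in the endosomal sorting of EGFR, was next at 0.19 (adjusted p = 0.553, edgeR), and Hgs, a sorting protein of the endosome, was at 0.09 (adjusted p = 0.772, edgeR). No gene of the 4 lists had an adjusted p under 0.05 with all libraries by edgeR's quasi-likelihood test, and 2 of their 35 tested genes had an unadjusted p under 0.05, where 8.92% of all genes did. When replicate 2 given FGF21 was left out, 4 of 35 had an adjusted p under 0.05 (7.50% of all genes), with Epgn, Bace1 and Lrig1 higher (3.78% of all genes) and Adam12 lower (3.72% of all genes).

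**Figure D4:**
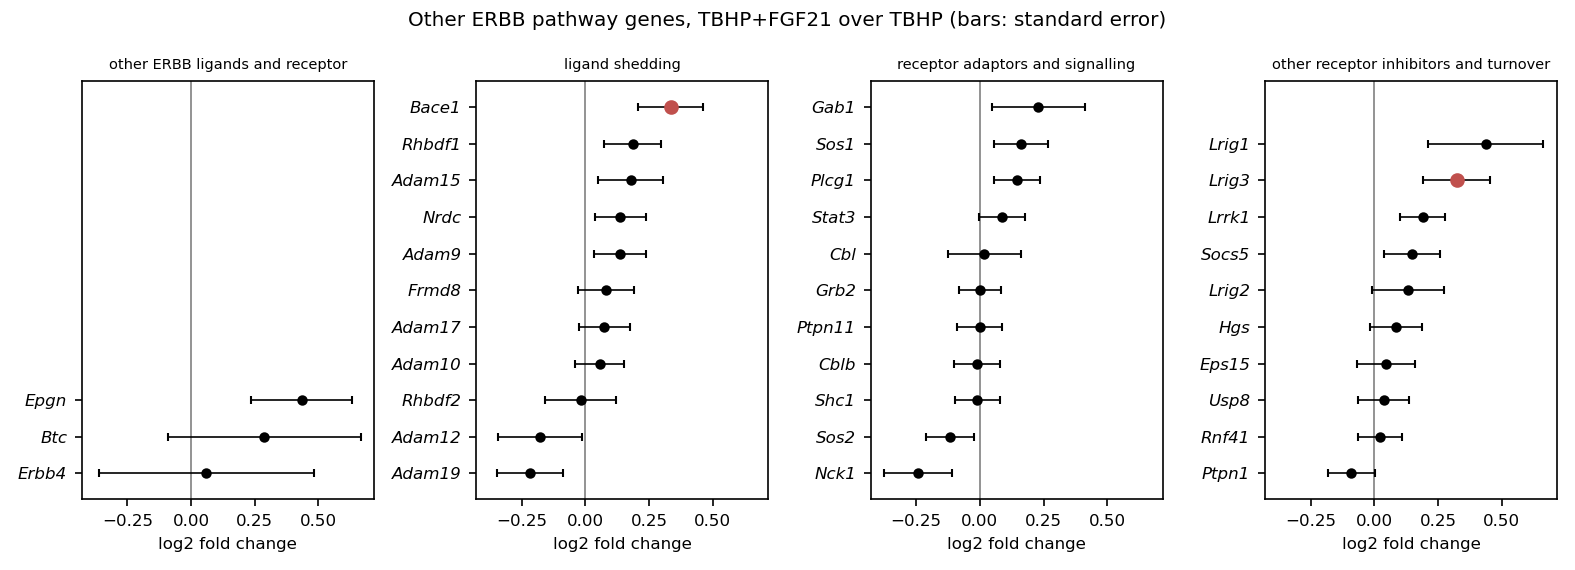
Log2 fold change of TBHP+FGF21 over TBHP (horizontal axes) with its standard error for the tested genes of 4 ERBB pathway lists, with red points for an unadjusted p under 0.05. Bace1 at 0.33 and Lrig3 at 0.32 are the red points, and Epgn at 0.43 lies in the same direction.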

How the data were processed

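The 6 RNA-seq libraries were grouped by their titles. The authors deposited a combined table of unnormalised counts per gene symbol, with values of the estimated count kind because 22 rows are not whole (rounded here), and a file of raw counts per Ensembl gene and library, unstranded and by strand. The submitters' processing notes name STAR and featureCounts, and versions, genome build and annotation were not given in the sources used here. The counts of each of the 9 members matched those of exactly 1 Ensembl gene. The strand columns held nearly equal counts (ratio 1.015 to 1.023), so strand was not used, although the labels name a directional kit. For the members, both strand columns together came to 100.0% to 100.1% of the unstranded counts. Rows that name no gene were not counted in library sizes: they held 1.24% to 1.40% (unmapped), 6.27% to 7.02% (several loci), 9.13% to 10.4% (no gene) and 1.72% to 2.09% (ambiguous) of the reads. No 2 libraries were repeats (chi-square per gene at least 6.98 in 15 pairs).

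The combined table was fitted with edgeR 4.0.16 in R 4.3.3 (TMM, filterByExpr with a minimum count of 10 and a total of 15, glmQLFit, glmQLFTest, Benjamini-Hochberg adjustment over all genes kept). The standard error is the log2 fold change over the square root of F. Levels are CPM with TMM-scaled library sizes, and since no transcript lengths were used they are not compared between genes. The permutation test used log2(CPM + 0.5). On simulated counts of 11426 genes for this comparison, edgeR recovered 177 of the 200 genes given a log2 change of 1, with 11 false calls. All members changed by less than that, at most 0.58 (Areg), and recovery of such smaller changes was not measured. Alternatives used DESeq2 1.42.0, limma-voom (limma 3.58.1), other scalings, filters and count tables, a replicate block, and each library left out. Members and gene lists were chosen with earlier results of these data known. All members are named. Of each pathway list, the 2 genes with the smallest p and the 1 with the highest mean CPM are named, and for Ereg, Nrg1 and Egfr the 3 genes with the highest Pearson's r. Adam17, Adam12, Lrig1, Erbb4, the untested ligands, the disc markers and Sirt1 were named after their values were seen.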

Additional observations from a re-analysis of the deposited data

How the results depend on the processing

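The log2 fold change of the 8 members kept its direction in 119 of 120 fits over 15 alternatives, the exception being Tgfa, which ranged from -0.048 to 0.016 with a library left out and reversed when replicate 3 given FGF21 was dropped (edgeR, adjusted p = 0.984). With a library left out, 0 to 3 members had an adjusted p under 0.05 and 0 to 4 an unadjusted p under 0.05, and over all genes these counts were 0 to 867 and 337 to 2732. The 3 members and the 867 genes came when replicate 2 given FGF21 was dropped, and the 0 at an unadjusted p under 0.05 when TBHP replicate 3 was dropped. A single member passed at an unadjusted p under 0.05 without TBHP replicate 1 and without replicate 1 or 3 given FGF21. Without TBHP replicates 1, 2 and 3 in turn, 510, 337 and 1771 of all genes did, and without replicates 1 and 3 given FGF21, 479 and 341. Under the other alternatives no member had an adjusted p under 0.05, and 2 or 3 members had an unadjusted p under 0.05. The number of all genes with an adjusted p under 0.05, 1 in the reported fit (Sirt1), was 4 with DESeq2's Wald test, 5 with no filter on low counts, and 0 with limma-voom and with the per-sample counts, unstranded or strand column 4, where 996, 1082 and 1049 genes had an unadjusted p under 0.05. The cause was not tested. With the replicate number as a block this count was 2, and 1599 genes had an unadjusted p under 0.05, against 1019. Libraries with the same number correlated at -0.12, 0.21 and 0.15 in their deviations from the group means, and TBHP replicates 1 and 3 each correlated best with another number. As not every pair was over 0.1 and the labels do not say what a number shares, the libraries were not treated as pairs. Counts of pathway and marker genes without replicate 2, and values of low genes with no filter, were added after the data had been seen. Depth limits Erbb3 and Erbb4, with at most 22 counts per library.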
